A study of Mus musculus with 9 samples.

Results

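Gene expression was compared between 2 mouse tumour cell lines selected for growth in the brain, the breast line E0771-BrM and the melanoma line B16F10-BrM. Each line was sequenced as 3 libraries, named A, B and C, out of 9 in the series; the other 3 came from 482N1, a line labelled as a lung tumour. The labels call E0771-BrM a triple negative breast cancer and B16F10-BrM a BRAF mutant melanoma, give the genotype of both as wild type, and list no treatment. Cells were grown in culture, E0771-BrM in RPMI 1640 with HEPES and B16F10-BrM in DMEM, both with fetal bovine serum, antibiotics and amphotericin B. The medium therefore cannot be told apart from the line in any value below. Each line is 1 line grown outside an animal, so the comparison describes these cells and not breast tumours or melanomas in general. The labels do not say that the 3 libraries of a line came from separate cultures, and p-values measure only the spread between these samples, which may be technical. The members of the comparison were all genes of the deposited count table that passed a filter on low counts, 11037 of 11046 genes.

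Breast carcinoma cells descend from a secretory epithelium, whose cells carry keratin filaments and are joined by cadherins and desmosomes. Melanoma cells descend from melanocytes, which arise from the neural crest and make pigment in melanosomes, organelles related to lysosomes, under the transcription factor MITF. Tumour cells of either origin reach the brain through the blood, cross its endothelium and grow beside astrocytes and neurons. Proteases, adhesion molecules, chemokines and genes shared with neurons are among the classes studied in that setting, and the series addresses how the electrical effects of brain metastases relate to their transcriptomes.

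Levels are given as CPM, counts scaled to a common library size with the trimmed mean of M values, as the mean ± SD of the 3 libraries of a line. The log2 fold change is E0771-BrM over B16F10-BrM ± its standard error from edgeR's quasi-likelihood fit of all 9 libraries, so a negative value is a gene higher in B16F10-BrM. A gene is called at a Benjamini-Hochberg adjusted p below 0.05 over all 11037 genes. CPM compares 1 gene between the lines, not 1 gene with another, since it takes no account of length. Where a line had 0 counts, the fold is a lower bound set by 3 counts over its 3 libraries. Where it had 1 to 3 counts, a ratio is printed only with its 95% counting interval. Such intervals and floors cover counting error only. Less RNA per cell and fewer cells that carry it cannot be told apart in bulk libraries.

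The 6 libraries held between 7332390 and 9085493 counts. Spearman's rho across genes was 0.9928 to 0.9935 between libraries of 1 line and 0.785 to 0.79 between the lines. Of the 10 melanocyte markers, 5 were in the table (Mitf, Tyrp1, Dct, Pmel and Gpnmb), with a summed level of 24630 to 25480 CPM in B16F10-BrM and 102.7 to 161.8 in E0771-BrM. Of the 13 breast epithelial markers, 4 were in the table (Krt8, Krt18, Erbb2 and Gata3), at 177.8 to 214.8 CPM in E0771-BrM and 3.229 to 4.767 in B16F10-BrM. The melanoma label is thus borne by its markers, while the breast label rests mainly on Krt8, since Krt18 had only 9 counts in all E0771-BrM libraries, and Erbb2 and Gata3 had 5.62 ± 1.09 and 1.4 ± 0.27 CPM there. Of markers of other cells the table held 1 of 6 for blood, 1 of 4 for endothelium and 1 of 5 for fibroblasts. The blood marker Cd68 had 13.59 to 17.38 CPM in E0771-BrM and 0.5018 to 0.625 in B16F10-BrM, the endothelial marker Egfl7 had 28.43 to 32.39 and 5.826 to 8.438, and the fibroblast marker Col1a2 had 0 to 0.2494 and 1.38 to 1.748. No lung epithelial marker of the list was in the table.

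Transcripts of the melanoma line were found at very low levels in the breast line, and not evenly over its libraries. Among 14 genes with at least 200 CPM in B16F10-BrM and a log2 fold change of -7 or lower, 13 were lowest in E0771-BrM library B. Their median level there was 0.0292% of the B16F10-BrM mean, against 0.251% in library A and 0.196% in library C. Dct, a melanin-synthesis enzyme, had 44.8, 3.48 and 32.8 CPM in E0771-BrM libraries A, B and C. In the opposite direction, of 6 genes with at least 200 CPM in E0771-BrM and a log2 fold change of 7 or higher, Gap43, Mmp3 and Ly6e had 0 counts in all 3 B16F10-BrM libraries and Hspb8 had 1. The others were present, S100a6 at 0.0338% to 0.0702% of its E0771-BrM mean and Lcp1 at 0.269% to 0.647%. Why the levels of the 14 melanoma-line genes differed between the E0771-BrM libraries was not tested. Log2 fold changes of the 14 genes are given below also with library B as the only E0771-BrM library, except for Marcks and Cadm1, which had 0 counts in it.

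**Figure D1:**
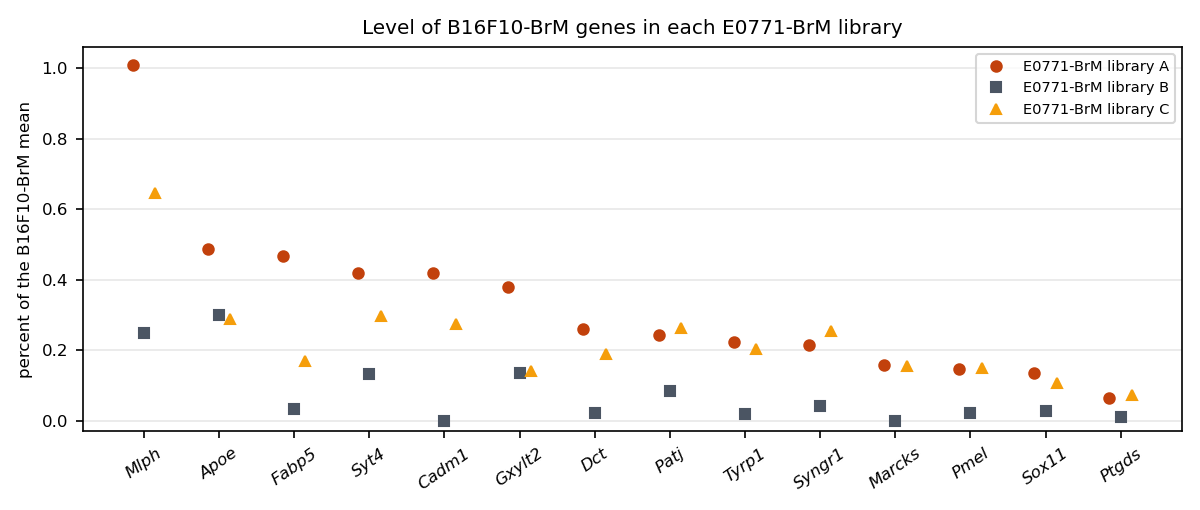
Level of 14 genes abundant in B16F10-BrM in each E0771-BrM library, as a percentage of the B16F10-BrM mean on the vertical axis, one symbol per library. Library B lies below A and C for 13 of the 14 genes, with a median of 0.0292% against 0.251% and 0.196%.

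The lines differed in most of the transcriptome. Of 11037 genes, 8131 (73.7%) were called, 4106 higher in E0771-BrM (37.2%) and 4025 lower (36.5%). In 8338 genes (75.5%) the 3 libraries of one line lay outside the range of the other. The median log2 fold change over all genes was 0.02 and the median of its size was 0.68. By size of the fitted change, 1922 called genes were at least 2-fold higher in E0771-BrM and 1935 lower, 563 and 489 at least 8-fold, and 352 and 311 at least 32-fold. Tested against a 2-fold change rather than no change, 1478 genes were higher and 1427 lower. Of genes with at least 10 CPM in E0771-BrM, 95 had no count in B16F10-BrM, and of those with at least 10 CPM in B16F10-BrM, 26 had none in E0771-BrM. Taken library by library, E0771-BrM A, B and C had 54, 96 and 58 such genes at 0, and B16F10-BrM A, B and C had 117, 124 and 133. With library B as the only E0771-BrM library, 3616 genes were called higher and 3480 lower. The share of members called in each gene list below is to be read against the 37.2% and 36.5% of all genes.

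**Figure D2:**
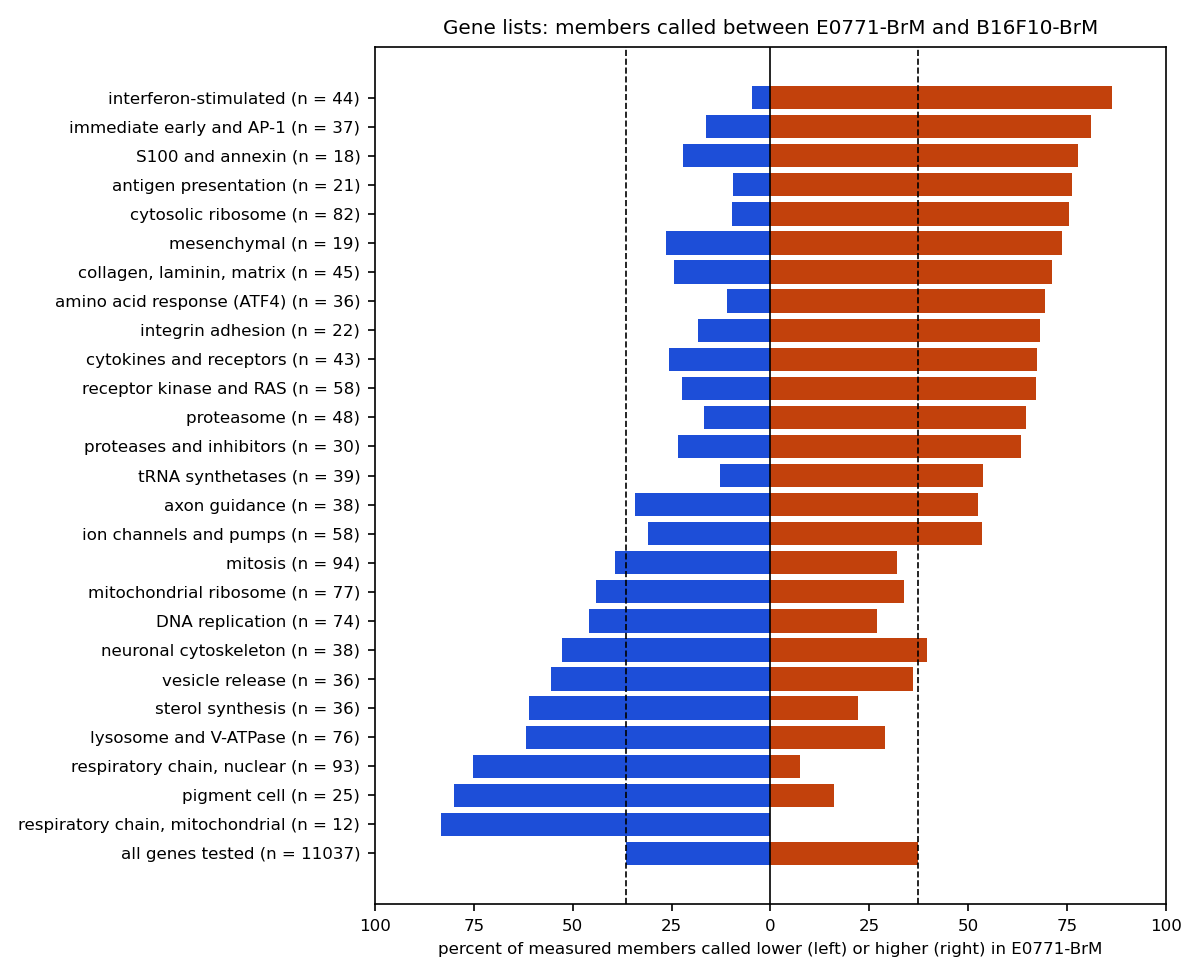
Percentage of the measured members of 26 gene lists called higher (right, orange) or lower (left, blue) in E0771-BrM than in B16F10-BrM, with all 11037 genes at the bottom and as dashed lines. Interferon-stimulated genes were at 86.4% higher and 4.55% lower, nuclear respiratory chain genes at 7.53% and 75.3%.

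Pigment genes were far higher in the melanoma line. Dct, dopachrome tautomerase, had 17121, 17679.6 and 16846 CPM in B16F10-BrM libraries A, B and C, a log2 fold change of -9.33 ± 0.86, and -12.27 with library B as the only E0771-BrM library. Pmel, the protein of the fibrils on which melanin is laid down, had 3.17, 0.48 and 3.24 CPM in E0771-BrM and 2269, 2155 and 2067 in B16F10-BrM (-9.89 ± 0.38, or -12.09 with library B alone). Tyrp1, a further enzyme of melanin synthesis, had 4.57, 0.36 and 4.11 CPM against 2004, 2024 and 2084 (-9.41 ± 0.46, or -12.41 with library B alone). All 3 genes were high in every B16F10-BrM library and low in every E0771-BrM library, with no overlap. Together they took 2.27% ± 0.0604 (SD, n = 3) of all B16F10-BrM counts.

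The wider pigment list had 25 measured members, of which 20 were called lower and 4 higher in E0771-BrM (median log2 fold change -0.70); with library B alone the counts were 19 and 4. Mitf, which encodes MITF itself, had 35.6 ± 2.69 CPM in E0771-BrM and 1029 ± 26.4 in B16F10-BrM (-4.85 ± 0.10), so the breast line was low but not at 0. Gpnmb, a melanosomal and lysosomal glycoprotein, had 70.7, 63.3 and 64 CPM against 3031, 2585 and 2583 (-5.37 ± 0.12). The carriers of melanosomes along actin differed likewise: Mlph, the linker between Rab27a and myosin Va, had 1.84 ± 1.1 CPM against 289 ± 13.4 (-7.30 ± 0.15, or -8.62 with library B alone). Rab32, a GTPase that routes cargo to melanosomes, had 1 count in E0771-BrM and 22.4 ± 1.35 CPM in B16F10-BrM. The 4 members called higher in E0771-BrM included the cystine transporter Slc7a11 (37.6 ± 8.61 against 7.99 ± 1.58 CPM, 2.22 ± 0.17) and the BLOC-1 subunit Bloc1s6 (0.78). Hps1 and Hps6, subunits of complexes that build lysosome-related organelles, were the others (1.38 and 0.70).

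The promoters of some of these genes hold a sequence to which MITF is known to bind, the M-box. It was searched as TCATGTG on both strands in the RefSeq promoter table (build GRCm38.p6), in the 250 bases before each gene start. It was present in 4 of 22 pigment genes with a promoter in the table (18.2%) and in 181 of all 8578 genes (2.11%). The 4 were Tyrp1, Dct, Hps1 and Slc7a11, of which Hps1 and Slc7a11 were called higher in E0771-BrM. The motif was in 2.39% of all genes called higher in E0771-BrM and in 1.81% of those called lower. A match is a description of letters and not of binding. The windows of Tyrp1 at chr4:80834141-80834197 (plus strand), Dct at chr14:118052366-118052422 (minus strand) and Slc7a11 at chr3:50443657-50443713 (minus strand) are shown 5′ to 3′ in the direction of the gene, with the motif in capitals, because the first 2 genes were among the most different toward B16F10-BrM and Slc7a11 was called in the other direction.
Tyrp1: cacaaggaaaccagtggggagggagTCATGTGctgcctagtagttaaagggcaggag
Dct: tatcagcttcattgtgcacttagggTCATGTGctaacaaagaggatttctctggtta
Slc7a11: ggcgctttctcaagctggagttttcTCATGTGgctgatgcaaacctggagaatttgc

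Among keratins and epithelial junction genes, E0771-BrM carried an incomplete set. Of 11 measured members 7 were called higher in E0771-BrM and 2 lower, with a median log2 fold change of 2.13 (1.69 with genes at 0 in one line set at their bound, and 0.55 with library B as the only E0771-BrM library). Krt8, a keratin of simple epithelia, had 208, 171 and 184 CPM in E0771-BrM libraries A, B and C and 0, 0.125 and 0.117 in B16F10-BrM, a ratio of 2452-fold (95% counting interval 678 to 20256). Its usual partner Krt18 had 0.381, 0 and 0.748 CPM in E0771-BrM and 0 in B16F10-BrM. The reference used by the authors for counting is not given in the sources used here. Krt20, an intestinal keratin, was at least 234-fold higher in E0771-BrM, with 26.9 ± 2.63 CPM against 0. The desmosomal plakophilin Pkp3 had 42.1 ± 2.62 CPM against 1 count in B16F10-BrM, and plakoglobin, Jup, had 10.8 ± 1.33 against 0.893 ± 0.46 CPM (3.59 ± 0.26). Itgb4, the integrin chain of hemidesmosomes, was lower in E0771-BrM, at low levels in both lines (0.166 ± 0.0759 against 1.39 ± 0.841 CPM). Tjp1 did not pass the test (25.8 ± 1.11 against 23.1 ± 4.99 CPM, adjusted p = 0.246 by edgeR) except without B16F10-BrM library B (0.35).

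The list of mammary genes held 9 measured members, 5 called higher and 4 lower (3 and 4 in a fit of the 6 libraries alone). Areg, the amphiregulin ligand through which oestrogen drives mammary duct growth, was at least 414-fold higher in E0771-BrM (45.2, 41.4 and 56 CPM against 0 in B16F10-BrM). The luminal transcription factors Gata3 (1.4 ± 0.27 against 0.0418 ± 0.0724 CPM) and Foxa1 (2.39 ± 0.565 against 0.534 ± 0.16 CPM) were called higher but stayed low in both lines. Erbb2, the HER2 receptor, had 5.2, 4.8 and 6.86 CPM in E0771-BrM and 3.23, 4.52 and 4.19 in B16F10-BrM (0.51 ± 0.23). The call of Erbb2 was lost without E0771-BrM library C (0.34), without B16F10-BrM library A (0.37) or C (0.55), and with library B as the only E0771-BrM library (0.28), as well as with upper-quartile scaling, DESeq2, limma-voom and a fit of the 6 libraries alone. Tfap2a and Erbb3, which both melanocytes and mammary epithelium use, were higher in B16F10-BrM (-1.39 and -1.83).

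E0771-BrM also carried mesenchymal transcription factors that were at or near 0 in B16F10-BrM. The mesenchymal list had 14 of 19 members called higher and 5 lower, with a median log2 fold change of 2.30. Prrx1, a homeobox factor of limb and head mesenchyme, had 107, 92.3 and 103 CPM in E0771-BrM and 0 in B16F10-BrM, at least 877-fold higher. Twist1 and Twist2, factors of epithelial-mesenchymal transition, were at least 442-fold and 183-fold higher. Zeb1, a repressor of epithelial genes, had 54.7 ± 2.28 CPM against 0.0694 ± 0.12, whereas its relative Zeb2 was lower in E0771-BrM (42.9, 39 and 47.8 against 139, 142 and 145 CPM, -1.71 ± 0.09). Vim, the mesenchymal filament vimentin, was abundant in both and higher in E0771-BrM (3459 ± 99.8 against 1465 ± 52.3 CPM, 1.24 ± 0.07). Members with the opposite sign were N-cadherin, Cdh2 (0.536 ± 0.141 against 90.9 ± 6.65 CPM, -7.37 ± 0.19), fibronectin, Fn1 (0.996 ± 0.386 against 21.2 ± 2.66 CPM, -4.40 ± 0.21, or -5.11 with library B alone), and the hyaluronan receptor Cd44 (-0.70).

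Developmental transcription factors were split in nearly equal numbers, 46 of 107 higher and 44 lower (43% and 41.1%, against 37.2% and 36.5% of all genes). The individual differences were large. Sox genes, which act in neural crest and neural progenitors, were mostly higher in B16F10-BrM, with 5 of 6 called lower in E0771-BrM. Sox11 had 449, 462 and 484 CPM in B16F10-BrM libraries and 0.634, 0.12 and 0.499 in E0771-BrM (-10.09 ± 0.16, or -11.75 with library B alone). Sox4, its close relative, had 149 ± 9.99 against 0.376 ± 0.257 CPM, and Sox6 had 91.5 ± 7.4 against 0.168 ± 0.145. Sox9, a factor of cartilage and gland progenitors, was the member called higher in E0771-BrM (53.1 ± 7.26 against 29.8 ± 1.17 CPM, 0.83 ± 0.10). Irx3 was at least 181-fold higher in B16F10-BrM, with 22.3 ± 4.94 CPM against 0. Mef2c, a factor of muscle, neurons and neural crest, had 188 ± 3.82 CPM there against 0.376 ± 0.374 in E0771-BrM. On the E0771-BrM side stood the homeobox gene Dlx2 (15.7 ± 1.06 against 0.112 ± 0.117 CPM) and Etv4, an ETS factor downstream of growth factor receptors (22.1 ± 1.64 against 0.234 ± 0.132 CPM, 6.501 ± 0.30).

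The 15 genes with the largest ratio toward E0771-BrM spanned cytoskeleton, proteolysis, secretion and signalling. S100a6, a calcium-binding protein of proliferating cells, had 2278, 2186 and 2211 CPM in E0771-BrM and 1.56, 0.753 and 1.28 in B16F10-BrM (10.81 ± 0.12). Gap43, a growth cone protein of regenerating neurons, had 364, 378 and 402 CPM against 0 and was at least 3324-fold higher. Hspb8, a small heat shock protein that works with BAG3 in autophagy, had 391, 375 and 381 CPM, with 1 count in all B16F10-BrM libraries. Every E0771-BrM library was above every B16F10-BrM library in each of these genes, which the choice of the 15 required. Mmp3, Ly6e and Wfdc2, a secreted protease, a membrane-anchored interferon-inducible protein and a secreted inhibitor-like protein, were at least 2778-fold, 2471-fold and 1633-fold higher. Afp, the fetal serum protein alpha-fetoprotein, had 162, 138 and 140.01 CPM against 0, at least 1277-fold higher. The tubulin Tubb2b and the annexin Anxa3 followed with at least 1119-fold and 1065-fold. Pxdn, the peroxidase that crosslinks collagen IV, and Pcolce2, an enhancer of procollagen cleavage, had 135 ± 10.01 and 127 ± 23.3 CPM, with 1 count each over the B16F10-BrM libraries. Lcp1, an actin bundler of blood cells also found in carcinomas, had 310.1 ± 11.3 against 1.41 ± 0.587 CPM. Ank3, ankyrin-G, which anchors sodium channels at the axon initial segment and E-cadherin in epithelia, had 136 ± 7.08 CPM against 2 counts. Fosl1 and Krt8 completed the 15.

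On the B16F10-BrM side the 15 genes joined pigment enzymes with lipid carriers and neural genes. Ptgds, the lipocalin-type prostaglandin D synthase of brain and melanocytes, had 1351, 1176 and 1073 CPM in B16F10-BrM and 0.761, 0.12 and 0.873 in E0771-BrM (-10.98 ± 0.16, or -13.12 with library B alone). Fabp5, a fatty acid binding protein, had 694, 748 and 761 CPM against 3.43, 0.24 and 1.25 (-8.82 ± 0.26, or -11.49 with library B alone). Apoe, the cholesterol carrier that astrocytes secrete, had 563, 539.9 and 462 CPM against 2.54, 1.56 and 1.5 (-8.12 ± 0.17, or -8.37 with library B alone). The lines did not overlap in these lipid carriers, which the choice of the 15 genes required. The E0771-BrM values of Ptgds and Fabp5 were lowest in library B. Syt4 and Syngr1, proteins of secretory and synaptic vesicles, had 1179.8 ± 1.89 and 589 ± 55.6 CPM against 3.33 ± 1.7 and 1 ± 0.669. Marcks, a protein kinase C substrate that binds actin at the membrane, had 319 ± 18.4 CPM against 0.335 ± 0.291, and the cell adhesion molecule Cadm1 had 273 ± 8.92 against 0.63 ± 0.58. Patj, a scaffold of the Crumbs polarity complex, had 993 ± 103 against 1.96 ± 0.972 CPM, and the xylosyltransferase Gxylt2, which modifies Notch, had 267 ± 10.1 against 0.583 ± 0.374. Dct, Pmel, Tyrp1, Sox11, Sox4 and Mef2c were the other members. With library B as the only E0771-BrM library, Patj and Gxylt2 had log2 fold changes of -10.18 and -9.47 instead of -8.99 and -8.81.

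**Figure D3:**
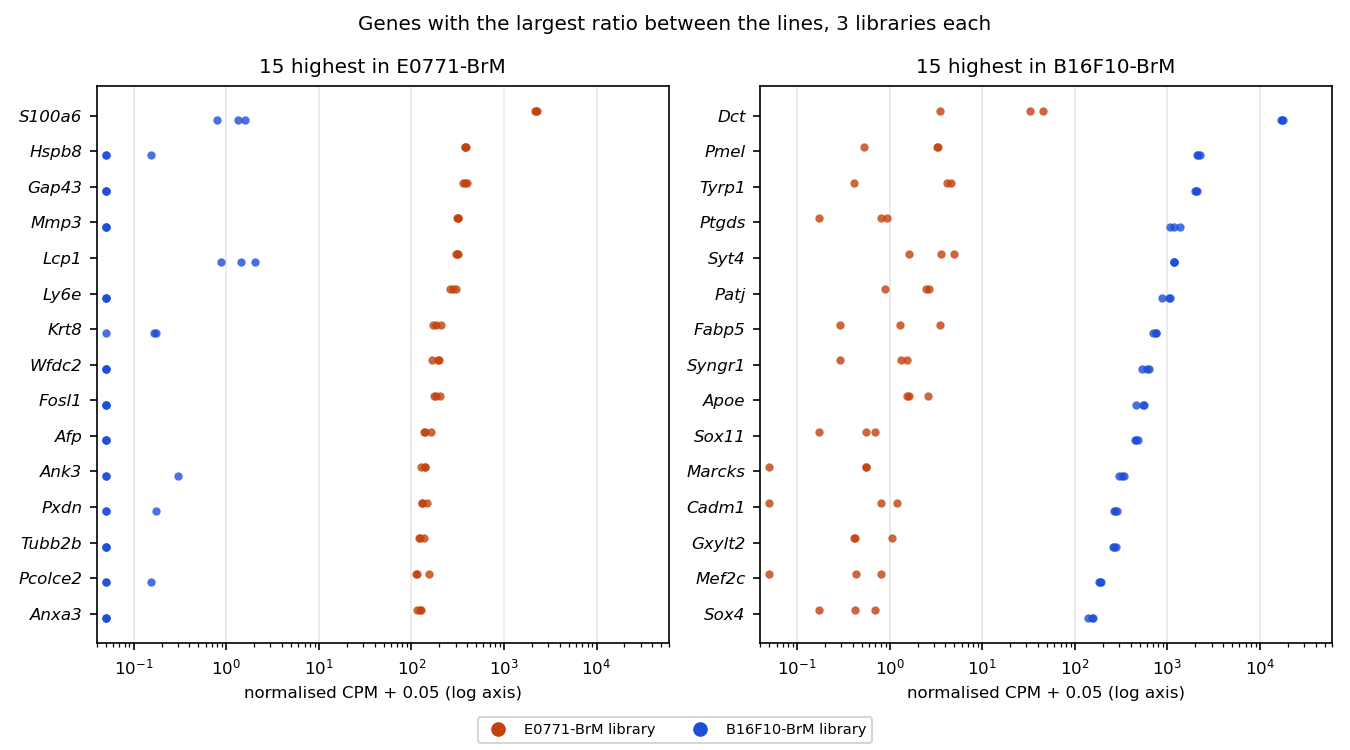
Normalised CPM plus 0.05 (log axis) in each of the 3 libraries per line for the 15 genes with the largest ratio toward E0771-BrM (left) and toward B16F10-BrM (right). Libraries of the lines do not overlap in any of the 30 genes, which the choice of genes required, and a point at 0.05 is a count of 0.

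Interferon-stimulated genes stood higher in the breast line as a group. Of 44 measured members 38 were called higher in E0771-BrM and 2 lower, 86.4% and 4.55% against 37.2% and 36.5% of all genes, with a median log2 fold change of 2.47. Interferons are secreted antiviral cytokines, and these genes answer them through STAT and IRF factors. Rsad2, the antiviral enzyme viperin, had 533, 455 and 411 CPM in E0771-BrM and 12, 12 and 13.2 in B16F10-BrM (5.23 ± 0.11). Ifit1, which binds foreign RNA ends, had 142, 95.5 and 119 CPM against 2.19, 2.51 and 1.86 (5.76 ± 0.25). Ifitm3, a block to virus entry, had 424, 375 and 368 CPM against 40.6, 31.5 and 32.7 (3.47 ± 0.09). In each of these the lowest E0771-BrM library was far above the highest of B16F10-BrM. Gbp7 and Igtp, GTPases induced by interferon gamma, had 227 ± 27.5 and 19.09 ± 3.56 CPM against 2.33 ± 0.924 and 0.118 ± 0.126, and Trim30a and Rtp4 had 70.9 ± 5.62 and 96.9 ± 7.8 against 1.29 ± 0.744 and 0.96 ± 0.343. Ifitm2 was lower in E0771-BrM (25.5 ± 3.54 against 41.5 ± 3.85 CPM, -0.71 ± 0.11). Several of these families hold near-identical copies, and how reads shared between copies were counted is not given in the sources used here.

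Among the genes of the interferon response, Irf9, a DNA-binding transcription factor of its signalling, had 66.9 ± 3.89 CPM in E0771-BrM against 6.03 ± 1.3 in B16F10-BrM (3.48 ± 0.14). Isg15, the ubiquitin-like modifier, had 97.6, 61.8 and 77.7 CPM against 1.98, 2.63 and 1.05. Cxcl10, a chemokine that calls T cells, had 38.2, 31.9 and 30.4 CPM in E0771-BrM and 30.1, 24.6 and 28.4 in B16F10-BrM, at most a small difference (0.27 ± 0.13, adjusted p = 0.0528 by edgeR). These 3 genes were chosen after their values were seen. Both chains of the type I interferon receptor were lower in E0771-BrM, Ifnar2 with 18.6 ± 1.9 against 34.2 ± 0.866 CPM (-0.88 ± 0.12) and Ifnar1 with 3.33 ± 0.563 against 9.08 ± 1.77 (-1.43 ± 0.23). The chains of the interferon gamma receptor split, Ifngr2 lower (6.34, 8.16 and 4.49 against 36, 32 and 38.8 CPM, -2.49 ± 0.16) and Ifngr1 higher (24 ± 2.76 against 12.7 ± 0.882 CPM, 0.92 ± 0.13). Ifnar1 and Ifngr1 were likewise added after their values were seen.

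**Figure D4:**
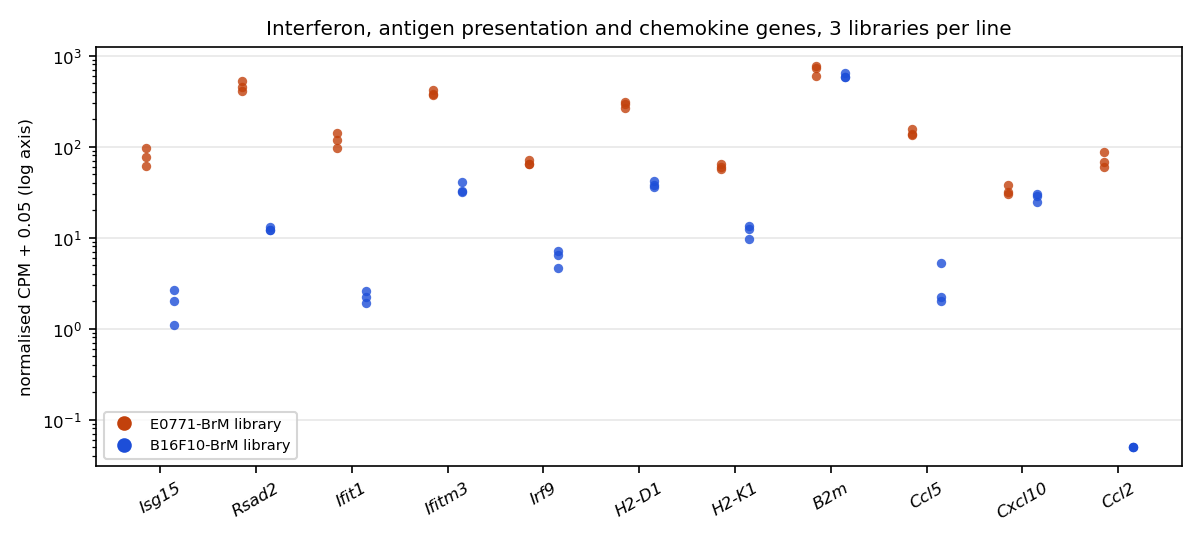
Normalised CPM plus 0.05 (log axis) of 11 interferon, antigen presentation and chemokine genes in each library, orange for E0771-BrM and blue for B16F10-BrM. Rsad2, Ifit1, Isg15 and Ccl5 are separated by more than 10-fold, B2m values overlap, and Ccl2 has 0 counts in B16F10-BrM.

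The interferon-stimulated response element, a sequence to which IRF9 complexes are known to bind, was searched as GAAANNGAAA on both strands, the other strand reading as its reverse complement, and overlapping matches were printed as 1 run. It occurred in 14 of 36 promoters of the list (38.9%) and in 261 of 8578 of all (3.04%). The 14 included Ifitm2, which was lower in E0771-BrM, and Cxcl10, which did not pass the test. The motif was in 3.64% of all genes called higher in E0771-BrM and in 2.72% of those called lower. The windows of Igtp at chr11:58199497-58199555 (plus strand), Gbp7 at chr3:142530258-142530317 (plus strand), Ifit1 at chr19:34640779-34640838 (plus strand) and Trim30a at chr7:104465195-104465254 (minus strand) (GRCm38.p6, in the direction of the gene, motif in capitals) are shown because these genes had some of the largest differences of the list. In Ifit1 the motif occurs 2 times within the window.
Igtp: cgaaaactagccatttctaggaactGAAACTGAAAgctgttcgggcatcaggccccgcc
Gbp7: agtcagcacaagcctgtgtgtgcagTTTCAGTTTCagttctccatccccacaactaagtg
Ifit1: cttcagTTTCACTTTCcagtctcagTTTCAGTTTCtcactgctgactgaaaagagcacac
Trim30a: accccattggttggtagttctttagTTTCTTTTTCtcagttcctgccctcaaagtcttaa

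Antigen presentation genes were also mostly higher in E0771-BrM, with 16 of 21 members called higher and 2 lower (median 1.20). The class I heavy chains H2-D1 and H2-K1, which display peptides to T cells, had 307, 264 and 291 and 64.2, 57.2 and 59.8 CPM in E0771-BrM, against 41.6, 36 and 38.2 and 9.69, 13.3 and 12.4 in B16F10-BrM. Their log2 fold changes were 2.89 ± 0.09 and 2.37 ± 0.12, and no library of one line reached the other. Steps before display had the same sign: Tapbp, which loads peptides (1.45 ± 0.10), Erap1, which trims them (2.83 ± 0.16), and Psme2, a subunit of the interferon-inducible proteasome cap (1.88 ± 0.11). Raet1e, a ligand of the NKG2D receptor of natural killer cells, had 44.2 ± 3.99 against 2.18 ± 0.595 CPM. The light chain B2m, chosen after its values were seen, had a small difference with overlapping libraries (769, 598 and 734 CPM against 642, 585 and 576, 0.22 ± 0.07). With library B as the only E0771-BrM library its log2 fold change was -0.008. The folding factor Pdia3 did not pass the test (-0.05), and Canx, at -0.14, did so without E0771-BrM library B (-0.19), with the replicate block (-0.145) and under 4 other alternatives.

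Most genes of the list of cytokines, chemokines and their receptors were higher in E0771-BrM, 29 of 43 higher and 11 lower, with a median of 1.74. Ccl2, the chemokine that calls monocytes, had 86.4, 60.2 and 67.5 CPM in E0771-BrM and 0 in B16F10-BrM, at least 620.1-fold higher. Ccl5, which calls T cells and macrophages, had 157, 138 and 133 CPM against 2.19, 5.27 and 1.98 (5.53 ± 0.19). Cxcl1, a neutrophil chemokine, had 34.4 ± 10.4 against 0.195 ± 0.189 CPM, and Il34, a ligand of the macrophage receptor CSF1R, was at least 92.1-fold higher. All 3 libraries of E0771-BrM were higher in each. Toward B16F10-BrM stood Il10rb, a shared chain of the IL-10 family receptors (3.3 ± 0.79 against 32.9 ± 2.05 CPM, -3.31 ± 0.17), and, by a small margin, the migration inhibitory factor Mif (-0.35 ± 0.08).

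The sensors and the NF-kB pathway were more mixed, with 22 of 41 called higher and 11 lower. The NF-kB subunits Rela (180.1 ± 9.94 against 46.6 ± 5.81 CPM, 1.95 ± 0.09) and Nfkb2 (1.61 ± 0.09) were higher in E0771-BrM, and so was the inhibitor Nfkbia, itself a target of the pathway (697, 582 and 625 against 86.9, 94.5 and 107 CPM). Mlkl, the executor of necroptosis, was higher as well (2.40 ± 0.12). The adaptor Traf3 (-0.995 ± 0.10) and the inhibitor Nfkbie (-2.41 ± 0.21) were lower in E0771-BrM.

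A cluster of genes of the PYHIN family, which includes DNA sensors, was at or near 0 in the melanoma line. Aim2, Ifi204, Mndal, Ifi211 and Ifi203, members of that family, are successive among the measured genes in the order of RefSeq. They had 3, 3, 1, 2 and 5 counts over the 3 B16F10-BrM libraries and 2659, 625, 1708, 958 and 1673 in E0771-BrM. Aim2, which assembles an inflammasome on DNA, had 99.6, 115 and 114 CPM in E0771-BrM libraries, a ratio of 956-fold (95% counting interval 327 to 4641). Ifi203 had 77.8, 60.8 and 68.9 CPM against 0.521, 0 and 0. The run was found by a search made after the values were seen, for at least 3 neighbours with 5 or fewer counts in a line, which gave 7 runs low in B16F10-BrM and 3 low in E0771-BrM, with 33 genes in all.

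Immediate early genes, the first genes switched on by growth factor and stress signals, were higher in E0771-BrM in 30 of 37 members and lower in 6, with a median log2 fold change of 2.11 (2.13 with genes at 0 set at their bound). Egr1, a zinc finger factor of the same early response, had 0 counts in all 6 libraries of both lines. Fosl1, the AP-1 subunit FRA-1, had 203, 174 and 183 CPM in E0771-BrM and 0 in B16F10-BrM, at least 1624-fold higher. Its partners Jun and Junb had 199 ± 16.8 and 46.9 ± 3.41 CPM against 65.3 ± 2.78 and 4.12 ± 0.705 (1.61 ± 0.09 and 3.49 ± 0.13). Myc, a driver of growth and ribosome synthesis, had 49.5, 38 and 42.6 CPM against 4.48, 2.76 and 3.73 (3.55 ± 0.18). The libraries of the lines were apart in all 4 genes. Atf3, a stress-induced AP-1 relative, Klf2, a Kruppel-like factor, and the kinase Sgk1 had the same sign (3.69, 4.46 and 4.57), as had the survival gene Ier3 (601 ± 34.5 against 112 ± 15.8 CPM). The nuclear receptors Nr4a3 and Nr4a2 were lower in E0771-BrM (-4.32 ± 0.21 and -1.35 ± 0.16).

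Most genes of the receptor kinase and RAS list were higher in the breast line. The list had 39 of 58 members called higher and 13 lower, with a median of 0.75. Among ligands, Ereg, epiregulin, was at least 313-fold higher in E0771-BrM (35, 34.1 and 38.5 CPM against 0), and Hbegf, which also binds EGFR, had 61.1 ± 2.91 against 6.18 ± 1.38 CPM. Ereg, Areg and Btc, 3 such ligands, are successive among the measured genes and had no count in B16F10-BrM, while Btc, named after its values were seen, reached only 2.38 ± 0.977 CPM in E0771-BrM. Among receptors, Egfr had 16.4, 14.6 and 18.2 CPM against 1 count in B16F10-BrM, and Fgfr1 had 44 ± 2.09 CPM against 1 count. Met, the receptor of hepatocyte growth factor, was higher in B16F10-BrM (606 ± 43 against 205 ± 11.3 CPM, -1.56 ± 0.07), as were Ddr1, a collagen receptor kinase (-4.38 ± 0.15), and Erbb3. Kitl, the ligand of the melanocyte receptor KIT, was made by E0771-BrM (104 ± 9.8 against 0.489 ± 0.126 CPM).

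Inside the cell, Braf, whose mutation the labels name for the melanoma, did not pass the test (71.6, 71.1 and 68.7 CPM in E0771-BrM against 60.3, 68 and 55.9 in B16F10-BrM, 0.20 ± 0.10, adjusted p = 0.0572 by edgeR), but was called without B16F10-BrM library B (0.28), with the replicate block (0.20), by limma-voom (0.21) and in a fit of the 6 libraries alone (0.19). Expression values do not show a mutation. Araf was lower in E0771-BrM (-1.17), as was Nf1, which switches RAS off (-1.09 ± 0.11). The phosphatase Dusp5, induced by ERK and acting on it, had 49.4 ± 5.26 CPM against 1 count in B16F10-BrM. Phlda1, a further target of the pathway, was lower in E0771-BrM (-0.82 ± 0.07). In the PI3 kinase list 17 of 52 were higher and 19 lower, 32.7% and 36.5%, near the 37.2% and 36.5% of all genes. The kinase Akt1 (46.7 ± 2.56 against 300.1 ± 32.5 CPM, -2.69 ± 0.09) and the insulin receptor substrate Irs1 (0 against 10.3 ± 1.98 CPM) were lower in E0771-BrM. Eif4ebp1, the translation repressor under mTOR, was higher (1.23 ± 0.09).

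Secreted proteases and their inhibitors were called higher in 19 of 30 members and lower in 7, with a median of 1.16. In a fit of the 6 libraries alone the numbers were 16 and 6 and the median 0.64. Mmp3, stromelysin, a protease of matrix and of other pro-proteases, had 323, 322 and 311 CPM in E0771-BrM libraries and 0 in B16F10-BrM. Its neighbours Mmp10 and Mmp13, named after their values were seen, had 7.57 ± 1.57 and 1.88 ± 1.06 CPM against 0. The plasminogen activator and its receptor lay on the same side: the activator Plau had 25.5 ± 0.799 against 0.656 ± 0.208 CPM (5.26 ± 0.27), and its receptor Plaur 11 ± 0.757 against 1.63 ± 0.828 (2.70 ± 0.23). Htra1, a serine protease, was at least 405-fold higher. Tissue inhibitors of metalloproteases were higher in B16F10-BrM: Timp2 had 817, 884 and 752 against 143, 142 and 145 CPM (-2.51 ± 0.08), and Timp3 had 19.08 ± 0.847 CPM against 1 count. The membrane protease Mmp14 did not pass the test (253 ± 29.4 against 268 ± 16 CPM, -0.08) except with library B as the only E0771-BrM library (-0.29), and Adamts1 was lower in E0771-BrM (-1.91 ± 0.09).

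The AP-1 site was searched as TGACTCA on both strands (TGAGTCA on the other) in the same promoter windows. It was found in 6 of 21 proteases and inhibitors (28.6%), in 1 of 29 immediate early genes and in 331 of 8578 of all genes (3.86%). The site was in 4.79% of all genes called higher in E0771-BrM and in 3.68% of those called lower. Of the 15 genes with the largest ratio toward E0771-BrM, 9 had a promoter and 1 held the site (Mmp3). Toward B16F10-BrM, 10 of the 15 had a promoter and 2 held it (Patj and Ptgds). The 3 neighbouring metalloproteases are shown, Mmp3 at chr9:7445751-7445807 (plus strand), Mmp10 at chr9:7502254-7502310 (plus strand) and Mmp13 at chr9:7272454-7272510 (plus strand) (GRCm38.p6, motif in capitals), since each holds the site; they were picked after their values were seen.
Mmp3: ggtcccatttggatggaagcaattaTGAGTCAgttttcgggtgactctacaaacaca
Mmp10: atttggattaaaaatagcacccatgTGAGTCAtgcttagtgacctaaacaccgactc
Mmp13: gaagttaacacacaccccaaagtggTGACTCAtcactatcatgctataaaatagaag

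Matrix genes were higher in the breast line in 32 of 45 cases and lower in 11, with a median of 1.75. Lamb1, a chain of laminin in basement membranes, had 421, 422 and 426 CPM in E0771-BrM and 3.75, 4.39 and 3.03 in B16F10-BrM (6.83 ± 0.11). Col18a1, the source of endostatin, had 62 ± 2.58 against 0.437 ± 0.283 CPM, and fibrillin, Fbn1, was at least 172-fold higher. Ltbp1, which stores latent TGF-beta on fibrillin, had 48.2 ± 3.25 against 0.441 ± 0.384 CPM. Sparc, a matrix protein abundant in melanoma, had 1328, 1237 and 1199.95 CPM in B16F10-BrM and 31.6, 22.9 and 26.1 in E0771-BrM (-5.55 ± 0.09). Lamb2, the laminin chain of vessels and synapses (-2.74 ± 0.16), fibulin, Fbln1 (51.9 ± 4.41 CPM against 2 counts), and the collagen chaperone Serpinh1 (-1.91 ± 0.12) were also higher there.

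Receptors for matrix differed in kind. Of 22 integrins and adhesion adaptors 15 were called higher in E0771-BrM and 4 lower. Itga3, a laminin receptor chain, was at least 209-fold higher (24.4, 20.6 and 26.9 CPM against 0), and the collagen receptor chains Itga2 and Itga1 had 10.6 ± 1.2 and 80.2 ± 1.24 CPM against 0.345 ± 0.511 and 20.5 ± 2.22. Itgb7, a chain otherwise typical of lymphocytes, had 116 ± 13.7 CPM against 1 count. The shared chain Itgb1 was higher in E0771-BrM (566 ± 13.9 against 321 ± 12.3 CPM, 0.82 ± 0.07), and Tln1, talin, did not pass the test (-0.09). Focal adhesion kinase, Ptk2, was slightly lower (-0.49 ± 0.10).

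Calcium-binding S100 proteins and annexins were called higher in 14 of 18 and lower in the other 4. Beside S100a6 and Anxa3, given above, they included S100a4, a protein of motile cells (42.4 ± 1.04 against 0.354 ± 0.24 CPM, 6.88 ± 0.21), S100a11 (2.67 ± 0.08), Anxa1 (2.49 ± 0.10) and Anxa2, which assembles plasmin formation at the surface (839, 908 and 840.3 against 243, 237 and 189 CPM, 1.95 ± 0.09). S100a1, Anxa5 and Anxa6 were lower (-1.19, -0.97 and -1.95). The actin list had 41 of 74 higher and 25 lower (55.4% and 33.8%, against 37.2% and 36.5% of all genes). Actb, beta-actin, had 13412, 13858 and 12829 CPM in E0771-BrM and 6547, 6238 and 5656 in B16F10-BrM (1.12 ± 0.07). Arpc1b, of the complex that branches filaments, and cofilin, Cfl1, which severs them, were higher by 1.84 ± 0.07 and 1.54 ± 0.07. Tropomyosins diverged: Tpm2 had 94.5 ± 5.74 against 0.199 ± 0.154 CPM, while Tpm1 had 321 ± 25.6 against 1018 ± 42.1 (-1.66 ± 0.07). Myo7a, a myosin of pigment and sensory cells, was higher in B16F10-BrM (58.3 ± 2.23 against 3.8 ± 0.599 CPM), as was Cotl1 (-2.81 ± 0.10).

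Ribosomal protein genes and respiratory chain genes differed in opposite directions. Cytosolic ribosomal protein genes were called higher in 62 of 82 and lower in 8, with a median of 0.40. They took 14.1% ± 0.517 (SD, n = 3) of all counts in E0771-BrM and 10.3% ± 0.21 in B16F10-BrM, with no overlap. The exact 2-sided permutation test gave p = 0.1, the smallest that 3 against 3 libraries allow. Fau, a ubiquitin-like fusion that yields protein S30, had the largest log2 fold change among the named members (2782, 2722 and 2755 against 736, 657 and 644 CPM, 2.02 ± 0.07), followed by Rpl13 and Rpl36a (1.66 ± 0.07 and 1.64 ± 0.07). Rpl22l1, Rps27l and Rpl39 were lower (-1.14, -1.02 and -0.83), and Rplp1 did not pass the test (0.05). The many processed copies of these genes make single members uncertain.

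Of 93 nuclear genes of the respiratory chain and ATP synthase, 70 were called lower in E0771-BrM and 7 higher, with a median of -0.61. Their share of counts was 1.59% ± 0.0729 in E0771-BrM and 2.4% ± 0.0413 in B16F10-BrM (SD, n = 3; exact permutation p = 0.1). Members of several complexes were lower: Ndufa4 and Ndufv3 (-1.91 ± 0.10 and -1.84 ± 0.10), Sdhb of succinate dehydrogenase (340.2, 387 and 334 against 880.1, 978 and 874 CPM), Cox5b of cytochrome oxidase (91.6, 86 and 85.7 against 361, 365 and 384 CPM, -2.08 ± 0.08) and Atp5g3 of ATP synthase (-1.72 ± 0.07). Ndufs8 of complex I was higher in E0771-BrM (0.87 ± 0.09), and Atp5b did not pass the test (-0.08). The coactivator Ppargc1a, which drives mitochondrial biogenesis, had 114, 126 and 113 CPM in B16F10-BrM and 0.254, 0 and 0.125 in E0771-BrM.

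Transcripts of the mitochondrial genome were lower in E0771-BrM too, 10 of 12 protein genes called lower and 0 higher (median -0.86). They made up 1.08% ± 0.0969 of counts against 2.21% ± 0.281 (SD, n = 3; exact permutation p = 0.1). mt-Nd2 had 1524, 1835 and 2180.2 CPM in E0771-BrM and 4981, 4421 and 5340.2 in B16F10-BrM (-1.41 ± 0.14), whereas mt-Nd5 did not differ by more than its error (0.01 ± 0.07, adjusted p = 0.865 by edgeR). The mitochondrial ribosomal RNAs had the same sign in share (1.8% ± 0.356 against 3.31% ± 0.385), and mt-Rnr2 was called lower (-1.06 ± 0.20) while mt-Rnr1 was not called (-0.36 ± 0.18) except without E0771-BrM library C (-0.53), with the replicate block (-0.38), with library B as the only E0771-BrM library (-0.43) and in a fit of the 6 libraries alone (-0.37). The libraries were made from polyadenylated RNA, a step that selects against cytosolic ribosomal RNA. The cytosolic Rn18s had 7.44% ± 0.809 and 7.24% ± 0.797 of counts, with overlapping libraries (exact permutation p = 0.8). Mitochondrial ribosomal proteins were split, 26 higher and 34 lower of 77 (33.8% and 44.2%, against 37.2% and 36.5% of all genes).

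**Figure D5:**
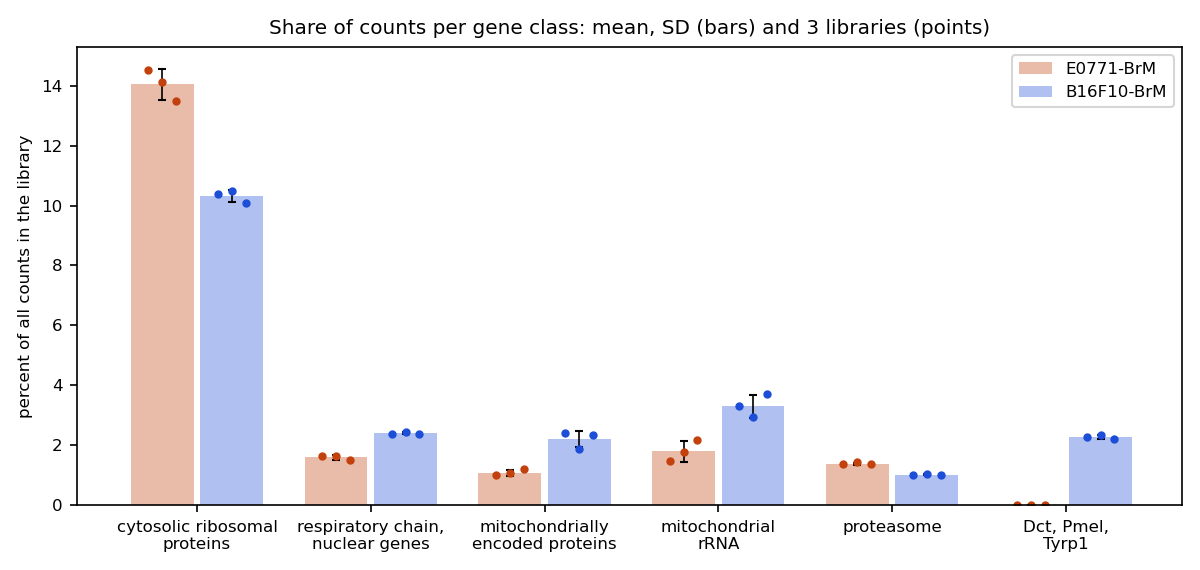
Percentage of all counts in each library taken by 6 gene classes, with bars for the mean, error bars for the SD and points for the 3 libraries of each line. Cytosolic ribosomal proteins are at 14.1% in E0771-BrM and 10.3% in B16F10-BrM, and nuclear respiratory chain genes at 1.59% and 2.40%.

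Central metabolism was divided. Glycolytic genes were called higher in 17 and lower in 22 of 44 (38.6% and 50%, against 37.2% and 36.5% of all genes). Hexokinases were exchanged: Hk1 was higher in E0771-BrM (192 ± 17 against 93.6 ± 9.94 CPM, 1.03 ± 0.09) and Hk2 lower (65.6 ± 2.6 against 192 ± 29.3 CPM, -1.54 ± 0.13). The brain-type aldolase Aldoc had 45.2 ± 6.73 CPM in B16F10-BrM and 0.369 ± 0.113 in E0771-BrM, and the pyruvate kinase Pkm was lower in E0771-BrM (-0.76 ± 0.11). In the citrate cycle Idh2 and Idh3a were lower (-1.80 ± 0.08 and -1.77 ± 0.09), while Glud1, which feeds glutamate into the cycle, was higher (1.33 ± 0.07) and Ogdhl had 50.3 ± 2.11 against 0.197 ± 0.241 CPM. Hypoxia-response genes were even, 16 higher and 15 lower of 32 (50% and 46.9%). The vasodilator peptide Adm (70.5 ± 19.11 against 0.314 ± 0.163 CPM, 7.78 ± 1.15) and the oxygen sensor Egln3 (5.99 ± 0.15) were higher in E0771-BrM. Bnip3 (20.4 ± 3.51 against 184 ± 40.4 CPM, -3.17 ± 0.26) and Vegfa (-0.99 ± 0.12) were lower.

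Of 36 genes of sterol synthesis and uptake, 22 were called lower in E0771-BrM and 8 higher, with a median of -0.43. Ebp, Dhcr7 and Fdft1, enzymes of the late pathway and of squalene synthesis, were lower (-1.75 ± 0.09, -1.68 ± 0.14 and -1.65 ± 0.13). Hmgcs1, the first committed enzyme, was called at 0.19 but not with upper-quartile scaling (0.15) or library B as the only E0771-BrM library (0.15), nor without E0771-BrM library C (0.14) or B16F10-BrM library A (0.16) or B (0.17). Scd2, a desaturase of fatty acids in brain, was lower in E0771-BrM (118 ± 7.8 against 576 ± 21.1 CPM, -2.29 ± 0.09), and Acsl4, which primes membranes with polyunsaturated fatty acids, was higher (123 ± 6.57 against 23.6 ± 2.75 CPM, 2.38 ± 0.10).

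Of 76 lysosomal genes 47 were called lower in E0771-BrM and 22 higher, with a median of -0.56. Melanosomes share part of this set with lysosomes. Atp6v0c, the membrane ring of the proton pump, had 476, 527 and 421 CPM in E0771-BrM and 1771, 1751 and 1437 in B16F10-BrM (-1.80 ± 0.13). Its relative Atp6v0e2 had 104 ± 10.6 CPM in B16F10-BrM and 0.251 ± 0.249 in E0771-BrM, and the sorting receptor Sort1 had 115 ± 6.94 against 0.956 ± 0.713. Hydrolases and activators with at most 1 count in the breast line were Ctsc, cathepsin C (0 against 25.1 ± 1.88 CPM), Arsb, arylsulfatase B (0 against 11.3 ± 1.41 CPM), and Gm2a, the cofactor of ganglioside breakdown (1 count against 51.2 ± 5.59 CPM). Cathepsin L, Ctsl, progranulin, Grn, and the membrane protein Cln3 were higher in E0771-BrM (2.25 ± 0.08, 1.56 ± 0.08 and 3.51 ± 0.22).

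Most proteasome genes and most genes of the amino acid response were higher in the breast line. The proteasome list had 31 of 48 genes called higher and 8 lower (median 0.43). It took 1.38% ± 0.0353 of counts against 1.01% ± 0.0167 (SD, n = 3, exact permutation p = 0.1). The list was drawn up by the start of the gene symbol, so it can include genes that are not subunits, such as Psmc3ip. Psmb4 and Psma6 of the core and Psmd2 and Psmd11 of the cap were higher (1.19 ± 0.08, 1.11 ± 0.07, 1.11 ± 0.07 and 1.23 ± 0.08), while the cap subunit Psmd8 was lower (-1.72 ± 0.07). Of the ATF4 list, genes induced when amino acids run short, 25 of 36 were called higher and 4 lower, with a median of 0.75. Atf4 itself had 1278, 1128 and 1054 CPM in E0771-BrM and 635, 573 and 532 in B16F10-BrM (0.99 ± 0.08), and its targets Trib3 and Nupr1 were higher (1.73 ± 0.11 and 1.83 ± 0.12). Atf5 was lower (10.9 ± 1.32 against 55.7 ± 4.14 CPM, -2.36 ± 0.13). Transfer RNA synthetases were called higher in 21 of 39 and lower in 5, among them Lars, Cars and Sars (1.73 ± 0.09, 1.35 ± 0.09 and 1.21 ± 0.07), with Wars, which charges tryptophan, lower (-1.25 ± 0.12). RPMI 1640 and DMEM differ in amino acid content, and the part of the medium in these values cannot be told apart from that of the line.

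Nucleotide and one-carbon genes were called higher in 27 of 52 and lower in 14. Several genes of nucleoside salvage were higher: Cda, cytidine deaminase (67.6 ± 6.61 against 0.341 ± 0.295 CPM, 7.56 ± 0.35), Upp1, uridine phosphorylase (5.95 ± 0.30), and Aprt (562, 566 and 539 against 87.7, 79.7 and 67.2 CPM, 2.83 ± 0.08). Hprt and Tk1, salvage enzymes of purines and thymidine, and Mat2a, which makes the methyl donor, were lower (-1.20 ± 0.10, -1.16 ± 0.09 and -1.86 ± 0.08). Metallothioneins Mt1 and Mt2, which bind zinc and copper, were lower in E0771-BrM (147 ± 3.18 and 36.1 ± 2.47 against 1095 ± 114 and 381 ± 47.9 CPM). Ferritin heavy chain, Fth1 (1.70 ± 0.07), and Gsto1, a glutathione transferase (3.52 ± 0.09), were higher.

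Cell cycle genes were found on both sides. DNA replication genes were called higher in 20 and lower in 34 of 74 (median -0.18), and 22 were called lower with library B as the only E0771-BrM library. Among 94 mitotic genes 30 were called higher and 37 lower, 31.9% and 39.4%, near the 37.2% and 36.5% of all genes. Mcm2 of the replicative helicase was lower in E0771-BrM (67.9 ± 8.98 against 175 ± 0.819 CPM, -1.37 ± 0.09) and Mcm7 higher (0.61 ± 0.07). The proliferation antigen Mki67 was lower (159, 169 and 157 against 390.4, 471 and 385 CPM, -1.36 ± 0.09), whereas securin, Pttg1, and the checkpoint target Cdc20 were higher (1.91 ± 0.08 and 1.25 ± 0.08). Of the repair list 20 of 82 were higher and 32 lower, 24.4% and 39%, the latter near the 36.5% of all genes. Brca1, which acts in recombination, had 17.4, 15.6 and 14.8 CPM in E0771-BrM and 46, 50.6 and 49.98 in B16F10-BrM (-1.61 ± 0.12), and Xrcc5, the large Ku subunit of end joining, had 6.56 ± 0.141 against 56.6 ± 4.76 (-3.10 ± 0.13). Fanca of the crosslink repair complex was higher (1.91 ± 0.15).

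Genes of the p53 response were split, 14 higher and 17 lower of 38 (36.8% and 44.7%, against 37.2% and 36.5% of all genes). Cdkn1a, the p21 inhibitor of cyclin kinases, had 56.2, 60.1 and 81.9 CPM in E0771-BrM and 300.4, 302 and 280.4 in B16F10-BrM (-2.16 ± 0.20), and Zmat3 and Phlda3 were lower as well (-2.23 ± 0.11 and -2.32 ± 0.20). Bbc3 and Gadd45a, which answer several stresses, were higher (2.09 ± 0.21 and 3.06 ± 0.19), and Mdm2 differed little (0.33 ± 0.09). Trp53 itself had 7.77 ± 1.79 against 15.9 ± 0.649 CPM (-1.03 ± 0.19). Other tumour genes with a call were Cdk6, Ccnd1 and Tert, higher in E0771-BrM (1.69 ± 0.09, 1.20 ± 0.07 and 3.36 ± 0.50; 2.68 for Tert with library B alone), and Cdk4, lower (-0.52 ± 0.08).

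Chromatin regulators were lower in E0771-BrM in 32 of 68 members and higher in 19 (47.1% and 27.9%). Tet1, which oxidises methylated cytosine (-2.37 ± 0.21), Kdm6a, a demethylase of the polycomb mark (-2.61 ± 0.17), and Cbx5, heterochromatin protein 1 alpha (-1.77 ± 0.07), were lower, and Phf19, Pcgf5 and Hdac1 higher (2.29 ± 0.27, 1.94 ± 0.15 and 1.000 ± 0.09). Sirt5, a mitochondrial deacylase, had 3333, 3791 and 3863 CPM in B16F10-BrM and 45.2, 33.5 and 43.5 in E0771-BrM (-6.49 ± 0.10). The TGF-beta, BMP and Notch list had 26 higher and 18 lower of 50 (52% and 36%). Bmp7, a ligand, was at least 221-fold higher in E0771-BrM, and the BMP targets Id1 and Id3 were higher (6.31 ± 0.19 and 4.04 ± 0.12). The Notch-related factor Hes6 had 33.4 ± 0.641 CPM in B16F10-BrM and 0 in E0771-BrM. In the Wnt list 12 of 37 were higher and 15 lower, 32.4% and 40.5%, near the 37.2% and 36.5% of all genes. The effector Ctnnb1, beta-catenin, had 205, 189 and 186 CPM in E0771-BrM and 884, 958 and 978 in B16F10-BrM (-2.28 ± 0.07). The ligand Wnt7b was at least 95-fold higher in E0771-BrM.

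Genes known from nerve cells were called in both directions. Axon guidance genes were called higher in 20 of 38 and lower in 13 (52.6% and 34.2%, against 37.2% and 36.5% of all genes), with a median of 0.91. Among ligands, the secreted semaphorin Sema3a, which repels axons, had 125, 132 and 136 CPM in E0771-BrM and 0.104, 0.627 and 0 in B16F10-BrM (9.06 ± 0.22), and Sema3c and Bdnf, a neurotrophin, had 43 ± 1.77 and 16 ± 2.81 against 2.06 ± 0.665 and 0.748 ± 0.578. Sema3b and Efna5 were higher in B16F10-BrM (54.7 ± 1.77 and 33.4 ± 0.334 against 1.19 ± 0.64 and 0.245 ± 0.117 CPM). Among receptors, Nrp1, which binds SEMA3A and VEGF, had 35.2, 40.02 and 34.4 CPM in B16F10-BrM and 0, 0.72 and 0 in E0771-BrM (-7.12 ± 0.32, or -5.63 with library B alone). Nrp2 did not pass the test (188 ± 18.2 against 194 ± 8.76 CPM, -0.04 ± 0.08). Plexins were exchanged, with Plxna4 higher in E0771-BrM (24.1 ± 1.47 CPM against 1 count) and Plxnb1, Plxnd1 and Plxna1 lower (-6.31, or -8.11 with library B alone, -1.53 and -1.33). The netrin receptor Unc5b was higher (3.23 ± 0.11).

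Ion channels, pumps and gap junctions bear on the electrical question of the series. Of 58 measured genes 31 were called higher and 18 lower, with a median of 0.33. Gja1, connexin 43, through which tumour cells can couple to astrocytes, had 64.1, 57.7 and 66.3 CPM in E0771-BrM and 0 in B16F10-BrM, at least 546-fold higher. Gjc1, connexin 45, was higher in B16F10-BrM (55.3 ± 1 against 16.6 ± 0.536 CPM, -1.74 ± 0.11). The potassium channel Kcnh2 was at least 145-fold higher in E0771-BrM, the calcium channel subunit Cacna2d1 had 11.1 ± 2.03 CPM against 1 count, and the calcium-gated chloride channel Ano1 had 19 ± 1.76 against 0.118 ± 0.126 CPM. The purinergic receptor P2ry2 was higher as well (5.64 ± 0.39). Receptors of calcium stores differed, Itpr3 higher in E0771-BrM (4.42 ± 0.16) and Itpr1 lower (-1.45 ± 0.12), while the store pump Atp2a2 did not pass the test (-0.13) except with upper-quartile scaling (-0.17).

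Transmitter-related genes in the table were mainly transporters and enzymes, 9 higher and 6 lower of 19 (47.4% and 31.6%, against 37.2% and 36.5% of all genes). The cystine and glutamate exchanger Slc7a11, described above, the glycine transporter Slc6a9 (24.1 ± 3.37 against 4.07 ± 0.377 CPM, 2.55 ± 0.18) and Aldh5a1, which breaks down GABA (2.16 ± 0.16), were higher in E0771-BrM. Glul, glutamine synthetase, the glutamine carrier Slc38a1 and the taurine carrier Slc6a6 were lower (-0.98 ± 0.10, -1.24 ± 0.08 and -1.11 ± 0.08).

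Of 36 vesicle release genes 20 were called lower in E0771-BrM and 13 higher (55.6% and 36.1%, against 36.5% and 37.2% of all genes). Syt4 had 1179.8, 1182 and 1178 CPM in B16F10-BrM libraries and 4.95, 1.56 and 3.49 in E0771-BrM (-8.47 ± 0.31, or -9.55 with library B alone), and Syngr1 had 608, 634 and 527 against 1.27, 0.24 and 1.5 (-9.19 ± 0.23, or -11.17 with library B alone). Both were high in each melanoma library, and their low E0771-BrM values were again lowest in library B. Rims2, a scaffold of release sites, was higher in B16F10-BrM (26.7 ± 1.43 against 0.326 ± 0.246 CPM). Syt7, a calcium sensor of slow release (12.1 ± 0.98 CPM against 1 count), and the docking protein Stx3 (2.05 ± 0.13) were higher in E0771-BrM.

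Adhesion molecules of synapses and the cadherin family were called higher in 15 and lower in 18 of 36 (41.7% and 50%, against 37.2% and 36.5% of all genes). B16F10-BrM had more of the neural adhesion molecules Ncam1 (209, 210.4 and 184 against 32.4, 33.1 and 37.2 CPM, -2.56 ± 0.09), Nrcam (139 ± 13 against 2.11 ± 1.09 CPM) and Alcam (25.2 ± 0.976 against 0.249 ± 0.127 CPM). E0771-BrM had more of L1cam, which lets tumour cells spread along brain capillaries (41.4, 37 and 35.5 against 9.58, 12.3 and 13.2 CPM, 1.70 ± 0.15). The pentraxin Nptx1, which clusters glutamate receptors, had 129, 132 and 114 CPM in E0771-BrM against 1 count, and its receptor Nptxr had 242 ± 7.29 against 13.3 ± 0.802 CPM (4.19 ± 0.10). Cdh13 and Flrt2 were at least 418-fold and 381-fold higher, and Pcdh7, a protocadherin linked to astrocyte contacts, had 18.9 ± 1.68 CPM in B16F10-BrM and 1 count in E0771-BrM.

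The growth cone and neuronal cytoskeleton list was split as well, 15 higher and 20 lower of 38 (39.5% and 52.6%, against 37.2% and 36.5% of all genes). Gap43 was on the E0771-BrM side, and its functional relatives Marcks and Basp1, which bind the same membrane lipid, were on the B16F10-BrM side (45.6 ± 3.16 against 0.251 ± 0.222 CPM for Basp1). Nes, nestin, a filament of neural progenitors, was higher in E0771-BrM (175 ± 5.74 against 33.6 ± 1.34 CPM, 2.38 ± 0.09), as was the bundler Fscn1 (345, 341 and 310.1 against 49.8, 59 and 51.8 CPM, 2.64 ± 0.08). Dpysl3, which guides growth cones, was higher in B16F10-BrM (47.7 ± 1.67 against 0.418 ± 0.323 CPM).

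A list of genes tied to brain colonisation in earlier work on other tumours had 12 of 21 members higher in E0771-BrM and 7 lower. These were 57.1% and 33.3%, against 37.2% and 36.5% of all genes. Its members on the breast side included Ccl2, Gja1, Hbegf, L1cam, Fscn1 and Twist2, and those on the melanoma side Cdh2, Pcdh7, Nrp1 and Vegfa, with the values given above. Connexin 43 and Pcdh7, named together in such work as partners at astrocyte contacts, thus lay on opposite sides. Itgav, an integrin chain, was called higher in E0771-BrM with overlapping libraries (69.2, 60.7 and 55.7 against 48.6, 57.2 and 47.2 CPM, 0.28 ± 0.10), and the call was lost with library B as the only E0771-BrM library (0.25), without E0771-BrM library A (0.19) and without B16F10-BrM library A (0.25) or C (0.23).

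The remaining runs of neighbours, found by the same search after the values were seen, add other classes. In B16F10-BrM Il1r1 and Il18rap, receptor chains for interleukins, had 0 counts against 226 and 324, and the next measured gene, the sodium-proton exchanger Slc9a2, had 2 against 201. Jrk, Them6 and Ly6e had 0 counts against 28, 282 and 6870. The histone genes H1f5, H2ac22 and H2ac24 had 0, 0 and 1 against 363, 84 and 93; most of their transcripts lack the poly(A) tail used to make the libraries. Ccdc68, Rab27b and Dynap had 0, 2 and 0 against 60, 122 and 1417. In E0771-BrM the run of Chn2, Scrn1, Fkbp14 and Plekha8, whose products serve Rac signalling, secretion, collagen folding and lipid transfer, had 0, 3, 0 and 2 counts against 1119, 1583, 352 and 958 in B16F10-BrM. Mapkapk3, Cish and Hemk1 had 1, 0 and 0 against 296, 33 and 52. The glutathione transferases Gstm5 and Gstm7 had 3 and 2 against 368 and 12.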

How the data were processed

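RNA of cultured E0771-BrM, B16F10-BrM and 482N1 cells was sequenced from polyadenylated RNA in stranded libraries, 3 per line, per the labels' protocols. The authors deposited 1 table of raw counts per gene; per the submitters' processing notes the GRCm39 build was used with the aligner TopHat2 2.0.10 over Bowtie 1.0.0, with SAMtools 0.1.19, and with Cufflinks 2.2.1, and the counting tool, its annotation and how the 11046 genes were selected are not given in the sources used here. Without them, reads shared by gene copies cannot be traced.

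From the counts, edgeR 4.0.16 (R 4.3.3) removed 9 genes with filterByExpr, scaled libraries by TMM and tested E0771-BrM minus B16F10-BrM by the robust quasi-likelihood F test in a fit of all 9 libraries, with Benjamini-Hochberg adjustment. CPM are TMM-normalised. The 62 gene lists are described by counts of calls. Simulated counts had 200 of 11046 genes changed and 1 mean for all lines in the others. Of the 200, 181 were recovered, 37 of 50 at 1.5-fold, with 9 false calls. Since 73.7% of genes were called between the real lines, the simulation does not give the false calls of this comparison. Replicates differed by more than sampling noise (chi-square per degree of freedom 3.98 to 6.32). limma 3.58.1 and DESeq2 1.42.0 served as alternatives. Named genes were the 15 with the largest ratio of CPM plus 1 each way, among called genes whose libraries did not overlap between the lines. To these came the 6 most changed called members of a list each way with at least 10 CPM, its 3 most abundant, and all members of lists of up to 12. A selection is printed, and exceptions are marked. The comparison, the lists and the alternatives were chosen with earlier results of these data known. Promoters came from a RefSeq table of GRCm38.p6 that matched 8578 of the genes tested. Neighbours were taken from the order of RefSeq genes (10775 symbols matched).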

Additional observations from a re-analysis of the deposited data

How the results depend on the processing

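The numbers of genes called stayed within 1.5 times of 8131 (4106 higher, 4025 lower in E0771-BrM) in all alternatives except the test against a 2-fold change, which called 2905, 1478 higher and 1427 lower, by its own construction. Leaving out 1 library at a time gave 7780 to 7849 calls, 3930 to 3983 higher and 3813 to 3888 lower. DESeq2 called 7873 genes, limma-voom 8148 and edgeR without scaling beyond library totals 8113. Upper-quartile scaling turned the split from 50.5% to 48.5% higher and the median log2 fold change of all genes from 0.0179 to -0.0184. With library B as the only E0771-BrM library, its spread assumed to be like that of the other lines, 7096 genes were called, and 29 of 702 named genes lost their call. No named gene with a call reversed its sign under any alternative. This carries little weight, since many were chosen for the largest changes, and sign changes of uncalled genes were not counted. Genes added after their values were seen were not among the 702.

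The replicate block, with the library letter as a term, called 8162 genes, 4120 higher and 4042 lower. The letters are not stated to pair the libraries. Deviations of same-letter libraries correlated across genes by 0.0679, 0.0898 and 0.0239 for A, B and C, and each library correlated best with its own letter, a hint from the data and not from the design.

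Depth limits the genes near 0 in one line. A line with 0 counts over its 3 libraries allows up to 3, so folds beyond that floor are lower bounds. Groups of 3 libraries were not searched for outliers.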
